A study of Mus musculus with 9 samples.

Results

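The insulin-like growth factor (IGF) axis was followed, by 10 of its genes, in cultured mouse fibroblasts that expressed a *CRX* gene of a eutherian or of a metatherian mammal. The 10 genes were taken by name from the 22068 genes of the count table, and all 10 were found there and passed the filter on low values that left 10100 genes for testing. A gene passed if it was high enough in 1 or more conditions, and *Igf1* was so in control alone. They are the ligand *Igf1*, its receptor *Igf1r*, the receptor's docking protein *Irs1*, the protease *Pappa*, and the binding protein genes *Igfbp2*, *Igfbp3*, *Igfbp4*, *Igfbp5*, *Igfbp6* and *Igfbp7*.

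Primary mouse embryonic fibroblasts (MEFs) of strain C57Bl/6 at passage 2 were electroporated with a plasmid that carried V5-tagged opossum *CRX* (metaCRX), V5-tagged human *CRX* (euthCRX) or no homeobox gene (control, whose label also names a V5 tag). All groups, control included, received a puromycin resistance gene, 5 days of puromycin and a recovery period of 48 h, which the labels place after the puromycin and the study's methods before it, with culture overnight after it. Each of the 3 conditions has 3 libraries of poly(A)-selected RNA. The cells are a primary population in which the gene was introduced as a plasmid, RNA was harvested in triplicate from each sample, and no source used here describes separate cultures or animals, so that the p-values measure only the spread between these libraries, which may be technical.

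IGF1 and IGF2 are secreted growth factors that signal through the IGF1 receptor, a tyrosine kinase that passes the signal to docking proteins such as IRS1 and on to the PI3K and Akt kinases. In tissues most IGF is held by the IGF binding proteins, which keep the ligand away from the receptor or store it near the cell, and proteases such as PAPP-A cut binding proteins and set the ligand free. Fibroblasts are a main source of several of these proteins, and IGF signalling is known for its part in the growth of the embryo and the survival of cultured fibroblasts.

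The libraries held from 54145701 to 94699657 counts, and TMM factors of edgeR lay between 0.9604 and 1.105. All 8 fibroblast markers looked for (such as *Col1a1*, *Vim* and *Pdgfra*) were counted in all 9 libraries, with a summed FPKM (counts normalised for exon length and library size) of 7262 to 7966 in control, above the 3641 to 6735 with euthCRX and the 3942 to 6766 with metaCRX. Of the 8, 3 were below control in every euthCRX library and 4 in every metaCRX library, among them *Col1a1* and *Col1a2*, while *Vim* overlapped and *Pdgfra* was above control in every metaCRX library. Over all genes tested, 14.0% with euthCRX and 23.3% with metaCRX did not overlap control in either direction. *Crx*, to which reads of the human plasmid may map, had 313 to 995 counts with euthCRX, 0 in each control library (which leaves room for up to 3) and at most 4 with metaCRX. Of the libraries, euthCRX replicate 3 stood apart from its replicates. The chi-square of its counts, divided by the degrees of freedom, was 1175 and 1159 against euthCRX replicates 1 and 2, and 30.81 between the latter. In the other conditions replicate 3 was also the most distant, with 398.5 to 466.7. For the members, differences from control are therefore given for all 9 libraries and also for the fit without the libraries numbered 3. That fit keeps only replicates 1 and 2 and leaves out the libraries most distant in these same data. Its spread is smaller by that choice, so that its p-values are no independent result. It called 22.2% of all genes tested with metaCRX, 2.94% with euthCRX and 22.5% between the *CRX* genes, against 0.0297%, 0.604% and 0% with all 9 libraries.

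The stretch upstream of the start site is shown for *Igfbp2* and *Igf1*, the members with the largest differences between the conditions in what follows, because CRX and related homeodomain proteins recognise the letters TAATCC. The sequences are 250 bases that end 1 base before a RefSeq transcript start on GRCm38.p6, on the plus strand, with each GGGCGG, the core of the GC box that Sp1-type factors recognise, in capitals. That of *Igfbp2* is chr1:72824230-72824479, directly before the first exon of the gene. That of *Igf1* is chr10:87860861-87861110, between 2 exons of the gene, which has several annotated starts.
*Igfbp2*: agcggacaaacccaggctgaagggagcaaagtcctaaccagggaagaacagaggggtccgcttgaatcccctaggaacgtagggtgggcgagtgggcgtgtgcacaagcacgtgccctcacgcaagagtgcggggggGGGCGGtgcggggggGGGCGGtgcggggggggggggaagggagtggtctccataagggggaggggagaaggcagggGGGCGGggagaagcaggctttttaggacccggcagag
*Igf1*: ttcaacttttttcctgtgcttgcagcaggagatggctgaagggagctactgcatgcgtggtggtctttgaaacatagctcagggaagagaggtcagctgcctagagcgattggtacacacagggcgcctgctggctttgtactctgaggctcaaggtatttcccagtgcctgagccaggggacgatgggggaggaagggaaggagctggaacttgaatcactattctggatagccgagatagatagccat
The *Igfbp2* stretch is 67.2% G or C and holds GGGCGG 3 times, whereas that of *Igf1* is 52.8% G or C and holds it 0 times. RefSeq windows of 300 bases (250 before the start and 50 after it) were at hand for 9 of the 10 members, as 10 windows because *Igfbp2* has 2, and not for *Pappa*. On either strand, TAATCC was in 0 of the 10 windows and in 7.06% of the 32851 windows of all genes. Its first 4 letters TAAT, which are part of TAATCC, were in 0 of 10 and in 58% of all windows, and GGGCGG was in 4 of 10 and in 35.7%. No match says only that these letters are not in this window.

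In control cells 5 of the 6 binding protein genes were the most abundant members and *Igf1* the least abundant, on the FPKM scale, which allows levels of genes of different length to be compared. The mean FPKM of control was 240.9 ± 26.6 for *Igfbp5*, 235 ± 104 for *Igfbp7*, 223 ± 28.9 for *Igfbp3*, 203 ± 139 for *Igfbp2* and 201 ± 32.9 for *Igfbp4* (SD, n = 3 throughout). The control libraries of each of these 5 genes overlapped those of the next, so that their order is not resolved. A gap without overlap separated *Igfbp4* from *Pappa* at 30.3 ± 9.46, *Irs1* at 24.8 ± 6.38, *Igf1r* at 22.8 ± 2.81 and *Igfbp6* at 22.7 ± 5.09 FPKM, whose libraries again overlapped from each gene to the next. *Igf1* was lowest, at 6.29 ± 2.02 FPKM, and its control libraries did not overlap those of any other member. The second ligand, *Igf2*, which is not a member, stood at 924 ± 198 FPKM in control, above every member.

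*Igf1*, on chromosome 10 of GRCm38 from 87858270 to 87937047, encodes the ligand. Its level was 73.1, 58.9 and 37.2 CPM (counts scaled to a common library size) in control replicates 1, 2 and 3, 18.9, 25.6 and 6.05 with euthCRX, and 20.4, 16.5 and 12.3 with metaCRX. Every library with either *CRX* gene was below every control library, while euthCRX and metaCRX overlapped, and replicate 3 was the lowest of each condition. The mean of control was 56.4 ± 18.1 CPM (SD, n = 3), that of euthCRX 16.8 ± 9.92 and that of metaCRX 16.4 ± 4.09. In FPKM the mean was above the filter's limit of 2 in control only (6.29, against 1.88 with euthCRX and 1.83 with metaCRX). A gene kept through control alone can only appear as lower with a *CRX* gene. The log2 fold change was -1.75 with metaCRX (standard error 0.30, 3.35-fold lower, adjusted p = 0.0722 from edgeR) and -1.87 with euthCRX (standard error 0.30, 3.66-fold lower, adjusted p = 0.0646 from edgeR). Neither reached the threshold of 0.05 on the adjusted p. In the fit without the libraries numbered 3, which called 22.2% and 2.94% of all genes tested with metaCRX and euthCRX, both did. The values were -1.84 for metaCRX (adjusted p = 0.00117 from edgeR) and -1.57 for euthCRX (adjusted p = 0.0116 from edgeR). Over all 19 alternative settings the adjusted p ranged from 1.6e-06 to 0.387 and from 1.3e-07 to 0.399. Between the *CRX* genes *Igf1* differed by 0.12 on the log2 scale (standard error 0.30, adjusted p = 0.904 from edgeR). *Igf2*, the other ligand, had log2 fold changes of -0.11 with metaCRX and -0.49 with euthCRX (adjusted p = 0.746 and 0.486 from edgeR). The FPKM of *Igf2* per FPKM of *Igf1* was 152 ± 30.3 in control, 426 ± 147 with euthCRX and 484 ± 141 with metaCRX (SD, n = 3).

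*Igf1r*, on chromosome 7 from 67952257 to 68233668, encodes the receptor. It had 275, 314 and 246 CPM in control, 315, 269 and 235 with euthCRX, and 277, 285 and 264 with metaCRX. The conditions overlapped, and the 9 libraries spanned 0.42 on the log2 scale, the smallest span of the 10 members. The log2 fold changes were -0.010 with metaCRX and -0.030 with euthCRX, each with a standard error of 0.12 (adjusted p = 0.973 and 0.975 from edgeR). With the libraries numbered 3 left out they were -0.069 and -0.018 (adjusted p = 0.699 and 0.960 from edgeR, ranges 0.397 to 0.9999 and 0.359 to 1). The insulin receptor gene *Insr* had log2 fold changes of 0.11 with metaCRX and -0.0038 with euthCRX (adjusted p = 0.565 and 0.999 from edgeR).

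*Irs1*, on chromosome 1 from 82233105 to 82291439, encodes the docking protein that links the activated receptor to PI3K. It had 277, 243 and 163 CPM in control, 249.9, 229.7 and 104 with euthCRX, and 162, 137 and 138 with metaCRX. The metaCRX libraries were all below control, the nearest being 162.8 CPM in control and 162.2 with metaCRX, and the euthCRX libraries overlapped both other conditions. The log2 fold change was -0.59 with metaCRX (standard error 0.21, adjusted p = 0.205 from edgeR) and -0.27 with euthCRX (standard error 0.21, adjusted p = 0.809 from edgeR). When the libraries numbered 3 were left out, *Irs1* fell by 0.80 on the log2 scale with metaCRX (adjusted p = 0.00100 from edgeR, range over the alternatives 8.3e-05 to 0.9999), and with euthCRX the value was -0.12 (adjusted p = 0.507 from edgeR, range 0.117 to 0.999). Of all genes tested, 22.2% were called with metaCRX in that fit. The related *Irs2* differed from control by -0.74 with metaCRX and -0.25 with euthCRX (log2, adjusted p = 0.205 and 0.875 from edgeR).

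*Pappa*, on chromosome 4 from 65124174 to 65357509, encodes PAPP-A, a secreted metalloprotease that cuts IGFBP4 and also IGFBP5. It had 423, 360.2 and 219.5 CPM in control, 287, 265 and 58.6 with euthCRX, and 251, 158 and 147 with metaCRX. Each library with a *CRX* gene was below the control of the same number, yet control replicate 3 lay inside the range of both other conditions. The log2 fold change was -0.80 with metaCRX and -0.88 with euthCRX, each with a standard error of 0.36 (adjusted p = 0.277 and 0.572 from edgeR). In replicates 1 and 2 alone, where 22.2% of all genes tested were called with metaCRX, *Pappa* fell by 0.96 on the log2 scale with metaCRX (adjusted p = 0.00392 from edgeR, range 0.000692 to 0.9999). With euthCRX the value was -0.50 (adjusted p = 0.119 from edgeR, range 0.0106 to 0.999).

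**Figure D1:**
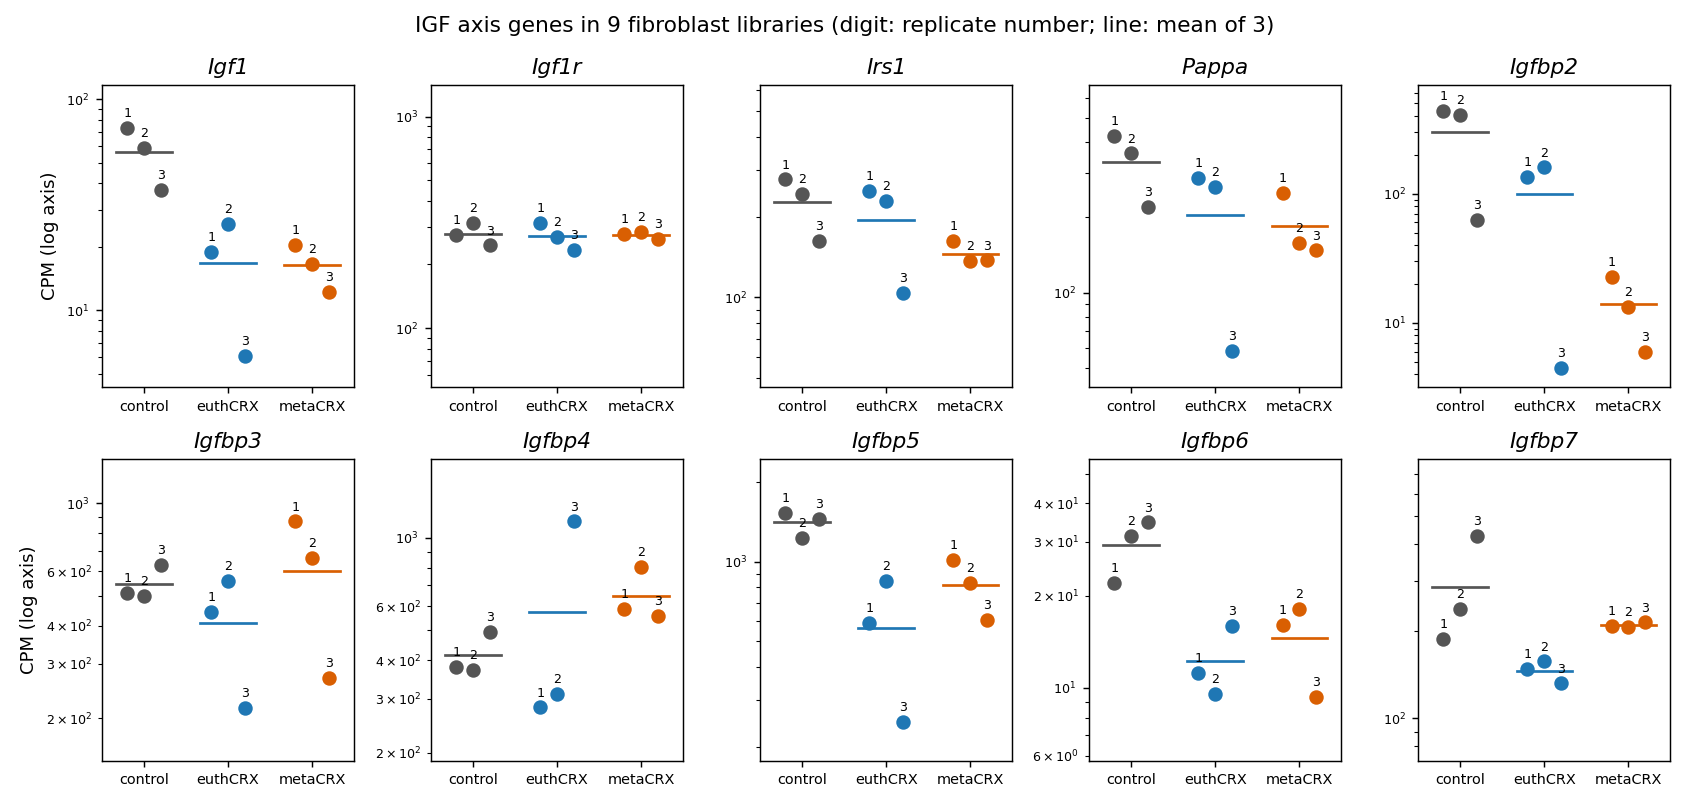
Level of each member in each library, in CPM on a log axis whose range differs between the panels; points are the 9 libraries with their replicate numbers and lines the means of 3. *Igf1* lies between 6.05 and 25.6 CPM with a *CRX* gene and between 37.2 and 73.1 in control, *Igfbp2* spans 4.46 to 433 CPM, and *Igf1r* stays between 235 and 315.

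*Igfbp2*, on chromosome 1 from 72824480 to 72852474, encodes a binding protein that prefers IGF2 and can also bind integrins. It had 433, 403 and 62.4 CPM in control, 134, 159 and 4.46 with euthCRX, and 22.6, 13.3 and 5.98 with metaCRX. The 3 metaCRX libraries were below all control libraries, replicate 3 was the lowest of each condition, and euthCRX replicate 3 was below all metaCRX libraries while euthCRX replicates 1 and 2 lay far above them. Its span over the 9 libraries, 6.59 on the log2 scale, was the widest of the members. The log2 fold change with metaCRX was -4.06 (standard error 0.71, 16.7-fold lower, adjusted p = 0.0757 from edgeR), and that with euthCRX -1.98 (standard error 0.65, 3.93-fold lower, adjusted p = 0.442 from edgeR). The direct difference between the *CRX* genes was -2.08 (standard error 0.70, adjusted p = 0.349 from edgeR), with -2.57 and -3.58 in the pairs numbered 1 and 2 and 0.42 in the pair numbered 3. Without the libraries numbered 3, *Igfbp2* passed the threshold in all 3 comparisons, with -4.56 for metaCRX (adjusted p = 0.000217 from edgeR), -1.50 for euthCRX (adjusted p = 0.0189 from edgeR) and -3.06 between them (adjusted p = 0.000566 from edgeR). In the same order, 22.2%, 2.94% and 22.5% of all genes tested were called in that fit. Over the alternatives the adjusted p of *Igfbp2* ranged from 1.7e-14 to 0.387, from 0.000408 to 0.999 and from 3.0e-05 to 0.999.

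*Igfbp5*, which binds the extracellular matrix, lies beside *Igfbp2* on chromosome 1, from 72858065 to 72874865 on the other strand, so that the 3′ ends of both genes face each other across 5590 bases. It had 1536, 1236 and 1459 CPM in control, 589.6, 848 and 247 with euthCRX, and 1019.7, 834 and 602 with metaCRX. All libraries with a *CRX* gene were below all control libraries, and euthCRX and metaCRX overlapped. The log2 fold change was -0.85 with metaCRX (standard error 0.34, adjusted p = 0.238 from edgeR) and -1.47 with euthCRX (standard error 0.35, adjusted p = 0.213 from edgeR). With the libraries numbered 3 left out, the values of -0.58 and -0.95 did not reach the threshold either (adjusted p = 0.0851 and 0.0651 from edgeR, ranges 0.00807 to 0.693 and 0.000491 to 0.780).

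*Igfbp4*, on chromosome 11 from 99041260 to 99052646, encodes the main substrate of PAPP-A, a binding protein known as an inhibitor of IGF action. It had 380.0, 371 and 493 CPM in control, 281, 312 and 1130.3 with euthCRX, and 587, 802 and 557 with metaCRX. The metaCRX libraries were all above control, whereas euthCRX replicates 1 and 2 were below every control library and euthCRX replicate 3 was the highest of the 9. The log2 fold change was 0.71 with metaCRX (standard error 0.44, adjusted p = 0.413 from edgeR), the highest of the members, and 0.27 with euthCRX (standard error 0.44, adjusted p = 0.930 from edgeR). With only replicates 1 and 2, *Igfbp4* rose by 0.87 on the log2 scale with metaCRX over control (adjusted p = 0.00402 from edgeR, range 0.00209 to 0.9999) and by 1.22 over euthCRX (adjusted p = 0.00140 from edgeR, range 0.000411 to 1), where 22.2% and 22.5% of all genes tested were called. The sign of its difference between euthCRX and control then turned to -0.35 (adjusted p = 0.227 from edgeR, the lowest of a range up to 0.9997).

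*Igfbp3*, the main carrier of IGF in serum, lies on chromosome 11 from 7206086 to 7213931. It had 510.5, 501 and 628 CPM in control, 443, 559 and 216 with euthCRX, and 872, 664 and 270.0 with metaCRX. With metaCRX replicates 1 and 2 were above all control libraries and replicate 3 below them, and the fitted difference was -0.05 (log2, standard error 0.40, adjusted p = 0.955 from edgeR). With euthCRX it was -0.59 (standard error 0.40, adjusted p = 0.774 from edgeR). Leaving out the libraries numbered 3 gave 0.60 (adjusted p = 0.0398 from edgeR, range 0.0119 to 1) and -0.015 (adjusted p = 0.978 from edgeR, range 0.183 to 0.9997), so that for metaCRX the sign turned with the libraries used. With metaCRX 22.2% of all genes tested were called in that fit. Its neighbour *Igfbp1*, 3539 bases away with facing 3′ ends, had 0 counts in each of the 9 libraries, which leaves room for up to 3 counts in a library.

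*Igfbp6* and *Igfbp7* were both lower with euthCRX than in any control library. *Igfbp6*, on chromosome 15 from 102144186 to 102149512, encodes a binding protein with a strong preference for IGF2 and had 21.98, 31.2 and 34.7 CPM in control, 11.2, 9.52 and 15.9 with euthCRX, and 16.1, 18.1 and 9.32 with metaCRX. Its groups did not overlap in either comparison with control, with log2 fold changes of -0.99 with metaCRX and -1.26 with euthCRX (standard error 0.32 each, adjusted p = 0.177 and 0.263 from edgeR). Fitted to replicates 1 and 2, *Igfbp6* fell by 0.64 with metaCRX and by 1.35 with euthCRX on the log2 scale (adjusted p = 0.0364 and 0.0133 from edgeR, ranges 0.00216 to 0.9999 and 0.00073 to 0.825), where 22.2% and 2.94% of all genes tested were called.

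*Igfbp7*, on chromosome 5 from 77349240 to 77408045, encodes a binding protein with weak affinity for IGFs that is deposited around cells. It had 188, 239 and 428 CPM in control, 148, 157 and 132 with euthCRX, and 209, 207 and 215 with metaCRX. The libraries of a *CRX* gene lay close together, at 146 ± 12.8 CPM with euthCRX and 210.4 ± 3.98 with metaCRX (SD, n = 3), and control replicate 3 was the highest. It was the only member for which euthCRX and metaCRX did not overlap (log2 difference 0.52, standard error 0.26, adjusted p = 0.490 from edgeR). Its log2 fold change was -0.38 with metaCRX and -0.90 with euthCRX (standard error 0.26 each, adjusted p = 0.452 and 0.350 from edgeR). Leaving out the libraries numbered 3 gave -0.029 and -0.48 (adjusted p = 0.867 and 0.0590 from edgeR, ranges 0.345 to 0.9999 and 0.0128 to 0.754), and without control replicate 3 alone the value with metaCRX was 0.015. In this gene 89 bases of the exons overlap those of *Polr2b* on the other strand, whose reads could not be told apart if the strand was not used in counting.

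**Figure D2:**
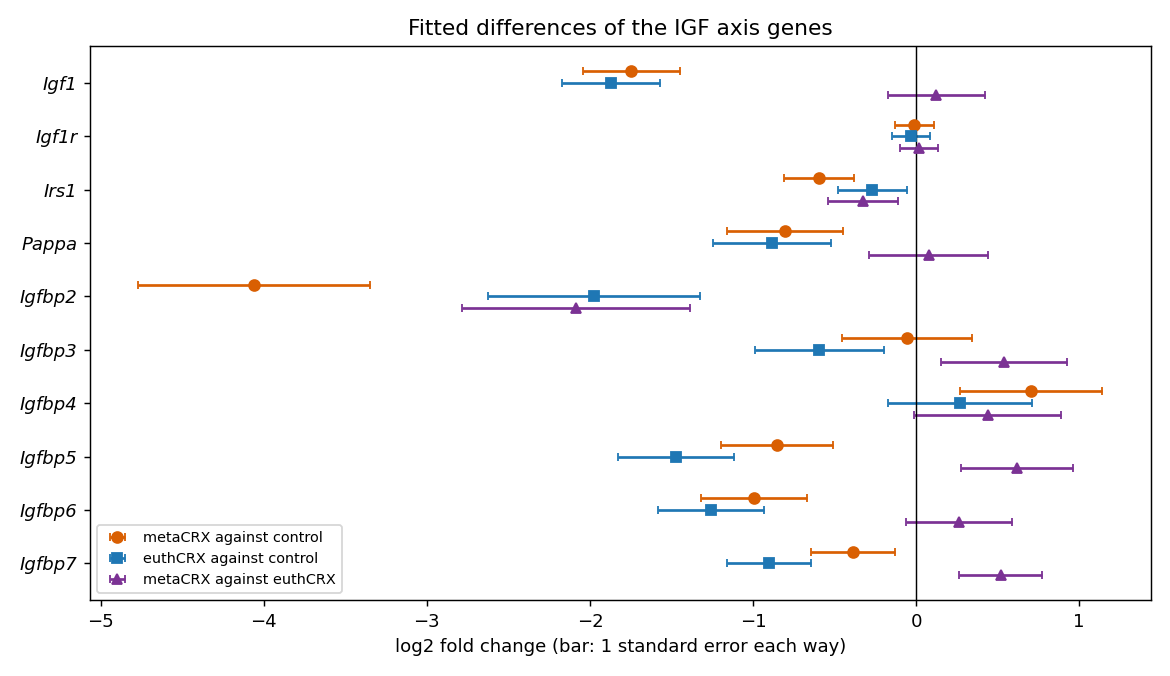
Log2 fold change of each member in the 3 comparisons from the fit of all 9 libraries, with 1 standard error each way. *Igfbp2* lies farthest below 0 in all 3 comparisons (-4.06, -1.98 and -2.08), *Igf1* follows with either *CRX* gene against control (-1.75 and -1.87), and *Igf1r* lies beside 0.

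Counted over the members, metaCRX against control gave 0 of 10 at an adjusted p under 0.05 in edgeR, where 0.0297% of the 10100 genes tested were called. At an unadjusted p under 0.05, 5 members were lower (*Igfbp2*, *Igfbp5*, *Igfbp6*, *Igf1* and *Irs1*) and 0 higher, where 10.5% of all genes tested were lower and 9.04% higher. The groups did not overlap for 6 members, 5 lower and *Igfbp4* higher, where 23.3% of all genes did not overlap in either direction. The median log2 fold change of the members was -0.70, against -0.0080 over all genes tested, and 9 of 10 were below 0. DESeq2 on the same counts called *Igfbp2*, *Igfbp6* and *Igf1*, where it called 9.94% of all genes, and limma voom with quality weights called 8 members, where it called 46.2%.

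EuthCRX against control likewise gave 0 of 10 members at an adjusted p under 0.05 in edgeR, where 0.604% of all genes were called. At an unadjusted p under 0.05, 6 members were lower (*Igfbp2*, *Igfbp5*, *Igfbp6*, *Igfbp7*, *Igf1* and *Pappa*) and 0 higher, where 6.34% of all genes were lower and 2.23% higher. For *Igfbp5*, *Igfbp6*, *Igfbp7* and *Igf1* all euthCRX libraries were below control and for 0 members above it, where 14.0% of all genes did not overlap. The median of the members was -0.89, against 0.0013 over all genes tested, and again 9 of 10 were below 0. DESeq2 called *Igfbp5*, *Igfbp6*, *Igfbp7* and *Igf1* (3.30% of all genes) and limma voom 6 members (16.8%). Both comparisons use the same control libraries, so that their likeness is not an independent result.

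The direct comparison of metaCRX with euthCRX gave 0 members at an adjusted p under 0.05 in edgeR, where 0% of all genes were called. At an unadjusted p under 0.05, *Igfbp2* was lower with metaCRX and 0 members were higher, where 4.13% of all genes were lower and 7.41% higher. For 1 member, *Igfbp7*, the groups did not overlap, where 11.5% of all genes did not. The median was 0.19, against -0.0054 over all genes tested, with 8 members above 0 and 2 below. The direct log2 differences not given so far were 0.54 for *Igfbp3*, 0.44 for *Igfbp4*, 0.62 for *Igfbp5*, 0.26 for *Igfbp6*, 0.020 for *Igf1r*, 0.08 for *Pappa* and -0.33 for *Irs1*, with adjusted p of 0.539 or more from edgeR. In the fit without the libraries numbered 3, where 22.5% of the genes tested were called, 6 members passed the threshold, namely *Igfbp2* and *Irs1*, lower with metaCRX, and *Igfbp3*, *Igfbp4*, *Igfbp6* and *Igfbp7*, higher. DESeq2 called 0 members, where it called 3.14% of all genes, and limma voom 8, where it called 48.3%.

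**Figure D3:**
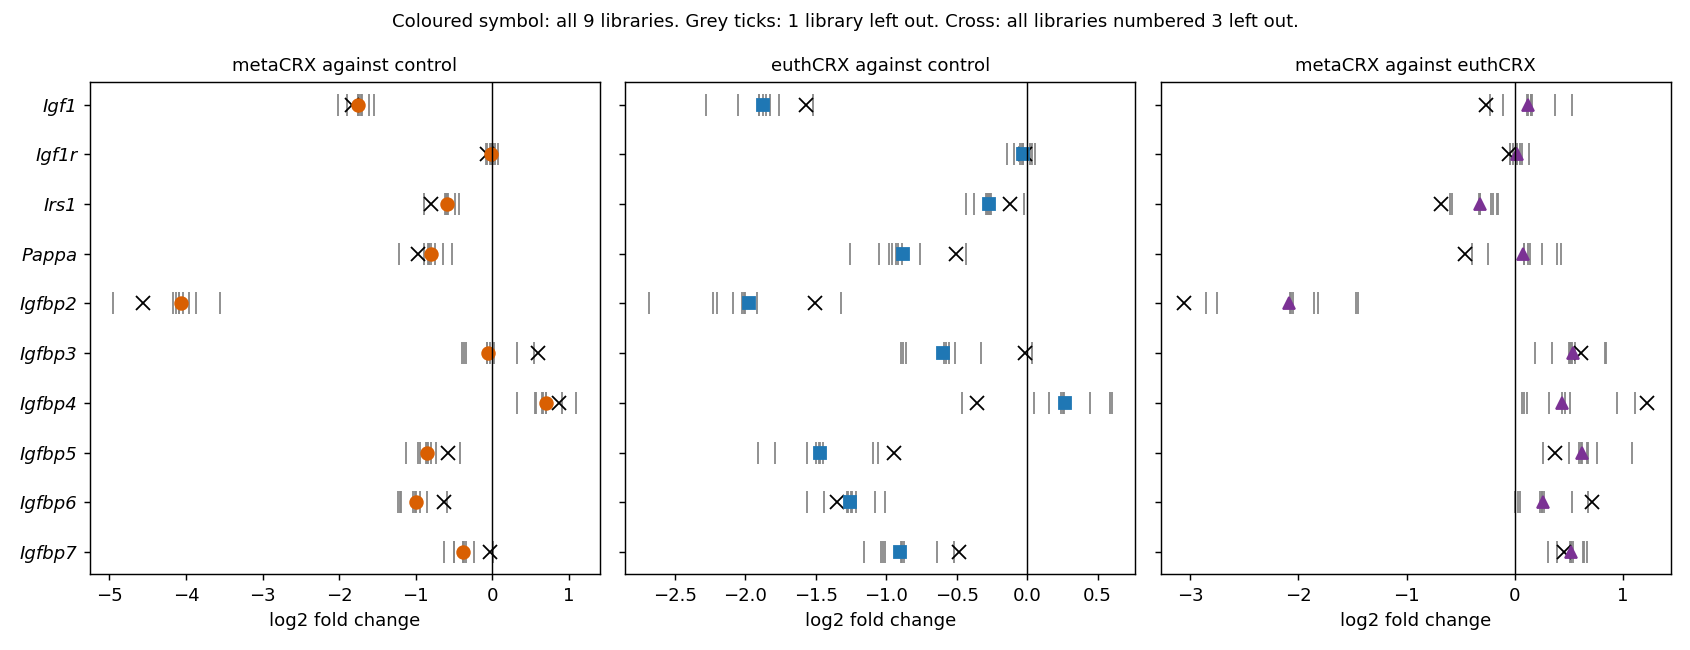
Log2 fold change of each member with all 9 libraries (coloured symbols), with each single library left out (grey ticks) and without the 3 libraries numbered 3 (crosses). *Igfbp2* with metaCRX stays between -4.95 and -3.56, whereas *Igfbp3* crosses 0 in the comparison of metaCRX with control and *Igfbp4* in that of euthCRX with control.

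As shares of the summed FPKM of *Igfbp1* to *Igfbp7*, which describe the make-up of the binding protein transcripts within a library, *Igfbp2* and *Igfbp4* varied most. *Igfbp2* took 26.2%, 25.1% and 3.62% in the control libraries, 14.2%, 14.0% and 0.377% with euthCRX, and 1.51%, 0.905% and 0.604% with metaCRX. *Igfbp4* took 16.4%, 16.5% and 20.5% in control, 21.3%, 19.6% and 68.2% with euthCRX, and 28.0%, 39.0% and 40.1% with metaCRX. In each metaCRX library *Igfbp4* thus held a larger share, and *Igfbp2* a smaller one, than in any control library. The share of *Igfbp5* was 21.4 ± 2.03% in control, 13.3 ± 7.11% with euthCRX and 15.6 ± 1.45% with metaCRX (SD, n = 3), and every library with a *CRX* gene was below control. *Igfbp3* held 19.8 ± 1.91%, 23.0 ± 10.4% and 26.2 ± 9.36% in the same order, *Igfbp7* 20.7 ± 8.51%, 16.5 ± 2.78% and 20.2 ± 5.39%, and *Igfbp6* at most 2.31% in any library. The sum itself was 1124 ± 38.6 FPKM in control, 736 ± 85.6 with euthCRX and 893 ± 193 with metaCRX, and all libraries with a *CRX* gene were below control.

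**Figure D4:**
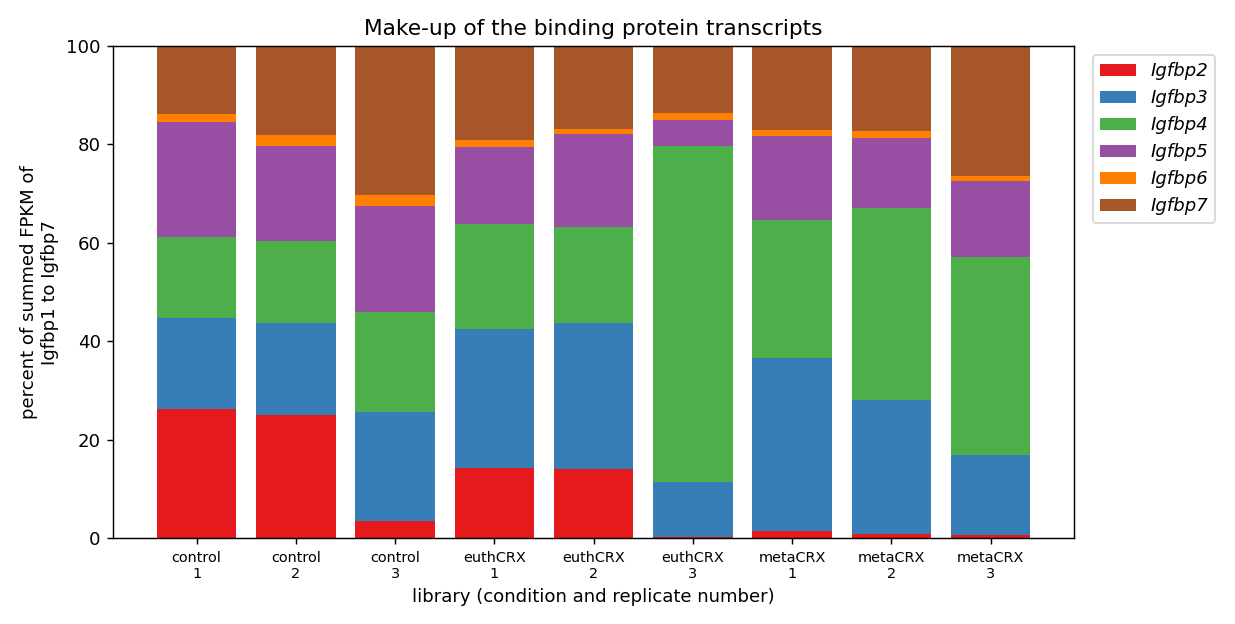
Share of each binding protein gene in the summed FPKM of *Igfbp1* to *Igfbp7*, in percent, in each of the 9 libraries. *Igfbp2* is at 1.51% or less in the metaCRX libraries and in euthCRX replicate 3, where *Igfbp4* reaches 68.2%, and *Igfbp1* has no visible share because it had 0 counts.

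Among 49 other genes of the IGF system, 42 were tested, and edgeR called 1, with euthCRX, where it called 0.604% of all genes. *Adam12*, a membrane metalloprotease that cuts IGFBP3 and IGFBP5, had 24.3, 24.1 and 38.5 CPM in control, 11.0, 9.18 and 11.4 with euthCRX, and 9.86, 8.82 and 18.3 with metaCRX. Every library with a *CRX* gene was below control, and *Adam12* fell by 1.42 on the log2 scale with euthCRX (standard error 0.18, adjusted p = 0.0353 from edgeR). Like *Igf1*, it passed the filter through control alone, with a mean FPKM of 3.67 there, 1.33 with euthCRX and 1.56 with metaCRX. With metaCRX the value was -1.27 (standard error 0.18, adjusted p = 0.0717 from edgeR), and between the *CRX* genes 0.15 (adjusted p = 0.794 from edgeR). The call was lost without the replicate block and in each of the fits without 1 library except that without metaCRX replicate 3. Of the 42 genes, 0 were called with metaCRX by edgeR (0.0297% of all genes), where DESeq2 called 7 (9.94% of all genes) and limma voom 23 (46.2% of all genes). At an unadjusted p under 0.05, 6 were higher and 9 lower with metaCRX (9.04% and 10.5% of all genes). With euthCRX 1 was higher and 8 lower (2.23% and 6.34% of all genes), and between the *CRX* genes 3 were higher and 2 lower (7.41% and 4.13% of all genes) with 0 called (0% of all genes). The medians of the 42 were -0.020 with metaCRX, -0.018 with euthCRX and 0.050 between the *CRX* genes.

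Of these genes at an unadjusted p under 0.05, which include the ligand *Igf2* with euthCRX (-0.49), none but *Adam12* passed the adjusted threshold. Of the proteases, *Htra3*, a serine protease of the HtrA family, had log2 fold changes of -2.04 with metaCRX and -1.39 with euthCRX (adjusted p = 0.0717 and 0.150 from edgeR), its relative *Htra1* -0.39 and -0.54 (adjusted p = 0.116 and 0.0827 from edgeR), and *Adam9* -0.61 with euthCRX (adjusted p = 0.449 from edgeR). *Igf2r*, the receptor that clears IGF2, was at 0.63 with metaCRX (adjusted p = 0.129 from edgeR), and its count pools exons listed on 2 chromosomes. The adaptors *Grb10*, which inhibits the receptor, *Gab1* and the PI3K subunit *Pik3r1* were at -0.56, -0.39 and -0.54 with metaCRX, and *Grb10* at -0.52 with euthCRX. The PI3K subunits *Pik3ca* and *Pik3cb* and the kinase *Mtor*, whose count like that of *Igf2r* pools exons on 2 chromosomes, were at 0.23, 0.51 and 0.25 with metaCRX, and *Foxo1*, a transcription factor that Akt restrains, at 0.31 with metaCRX and 0.27 with euthCRX. *Stat5a* and *Stat5b*, transcription factors that induce *Igf1* downstream of growth hormone, were at -0.35 and -0.40 with metaCRX against control and at -0.51 and -0.35 against euthCRX. The RNA-binding proteins *Igf2bp2* and *Igf2bp3* were at -0.36 and -0.42 with euthCRX, and *Igf2bp3* at 0.38 between the *CRX* genes. *Igf2r* was at 0.58 in that direct comparison. The adjusted p of the kinases, adaptors and transcription factors lay above 0.05 in all 3 comparisons.

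Of 9 genes that share the IGF binding protein domain at their N-terminus, 8 were tested, and edgeR called 1, with euthCRX, where it called 0.604% of all genes. DESeq2 on the same counts called *Cyr61*, *Wisp1* and *Esm1* with metaCRX, where it called 9.94% of all genes. It called *Ctgf*, *Cyr61* and *Wisp1* with euthCRX (3.3% of all genes), and *Ctgf*, *Wisp1* and *Esm1* between metaCRX and euthCRX (3.14% of all genes). *Wisp1*, a matricellular protein of the CCN family, had 195, 188 and 259 CPM in control, 97.9, 97.7 and 91.1 with euthCRX, and 141, 118 and 169.6 with metaCRX. The 3 conditions did not overlap, with control highest and euthCRX lowest. *Wisp1* fell by 1.14 on the log2 scale with euthCRX (standard error 0.14, adjusted p = 0.0342 from edgeR), while metaCRX was at -0.58 against control (adjusted p = 0.113 from edgeR) and at 0.56 against euthCRX (adjusted p = 0.281 from edgeR). As for *Adam12*, the euthCRX call held in 1 of the 9 fits without 1 library, that without metaCRX replicate 3, and was lost without the block, in DESeq2 on rounded FPKM and with only the 6 libraries compared. It held with the other scalings and filters, in DESeq2 on counts, in limma voom and without the libraries numbered 3. Of the same family, *Ctgf* was at -1.10 with euthCRX (adjusted p = 0.159 from edgeR) and at 0.96 with metaCRX against euthCRX (adjusted p = 0.281 from edgeR), *Cyr61* at -0.64 and -0.52 with metaCRX and euthCRX, and *Wisp2* at -2.28 with metaCRX (adjusted p = 0.225 from edgeR). *Esm1*, a secreted proteoglycan of endothelial cells, was at 1.605 with metaCRX against control and 1.82 against euthCRX (adjusted p = 0.109 and 0.275 from edgeR).

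The genes whose log2 CPM was most like that of a member over the 9 libraries were named by the Pearson correlation, as a description, since the libraries share their conditions and replicate numbers. For *Igf1* they were *Smoc1* (r = 0.993) and *Cenpq* (r = 0.985), a kinetochore gene. For *Pappa* they were *Setd7* (0.994) and *Col8a1* (0.989), and for *Irs1* *Pcdhga6* (0.994) and *Pag1* (0.991). For *Igfbp2* they were the glutamine transporter *Slc1a5* (0.989) and the cytokine receptor *Il6st* (0.984). For *Igfbp4* they were the cell cycle inhibitor *Cdkn2b* (0.972) and the phosphate transporter *Slc20a2* (0.966), for *Igfbp3* *Slc22a18* (0.988) and the cartilage matrix gene *Comp* (0.981), and for *Igfbp5* *Pi15* (0.976) and *Klf3* (0.974). For *Igfbp7* they were *Lima1* (0.987) and the collagen hydroxylase *P4ha3* (0.974), for *Igfbp6* *Ch25h* (0.948) and the transcription factor *Srf* (0.942), and for *Igf1r*, which varied least, *Heatr5b* (0.941) and *Fat1* (0.931).

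Of the marker lists of other cell types and states, the sums of smooth muscle and cycling markers were below control with either *CRX* gene. The sum of macrophage and leukocyte markers was so with metaCRX only, and the sums of the other lists overlapped. Beside the counts of markers below control that follow, 14.0% of all genes tested with euthCRX and 23.3% with metaCRX did not overlap control in either direction. In bulk RNA, fewer cells of a type and less RNA per cell cannot be told apart. All 4 smooth muscle markers were below control in every library with a *CRX* gene, with a summed FPKM of 1101 to 1857 in control, 148 to 807 with euthCRX and 271 to 521 with metaCRX. The 4 cycling markers summed to 21.4 to 32.0 FPKM in control, 6.41 to 10.6 with euthCRX and 10.1 to 20.7 with metaCRX, with all 4 below control with euthCRX and 2 with metaCRX. Macrophage and leukocyte markers, 8 in the table and 7 of them counted in all 9 libraries, summed to 11.4 to 38.1, 6.22 to 20.5 and 3.78 to 10.1 FPKM in control, euthCRX and metaCRX, so that every metaCRX sum was below every control sum. Of these 8, 2 were below control in every euthCRX library and 3 in every metaCRX library, where 14.0% and 23.3% of all genes tested did not overlap control, and 0 were at 0 throughout a condition. Those of endothelium, epithelium, skeletal muscle, adipocytes and neural cells summed to at most 74.3 FPKM in any library and their sums overlapped between the conditions, with *Tie1* at 0 in control, *Myod1* at 0 in control and metaCRX, *Myog* at 0 with euthCRX and *Plin1* at 0 with metaCRX. Among them, 1 of 5 endothelial markers (*Emcn*) and 1 of 3 neural markers (*Sox10*, of neural crest and Schwann cells) were below control in every euthCRX and every metaCRX library. The other markers of these 2 lists overlapped control. *Emcn* and *Sox10* failed the filter, at a mean of 0.43 and 0.50 CPM in control, and were not tested. The part of these cell types and states in the differences of *Igf1*, *Igfbp2* and the other members was not tested. Replicate 3 was the lowest library in all 3 conditions for *Igfbp2*, *Igf1*, *Igf1r* and *Pappa*, and what the libraries numbered 3 share was not tested.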

How the data were processed

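RNA-seq of 9 MEF libraries was used, 3 per condition. Per the study's methods, paired reads were aligned with STAR to mm10 and counted per gene with featureCounts. The authors deposited the raw counts, without normalization or pooling. The annotation release and strand option are not given in the sources used here. Counts were analysed with edgeR 4.0.16 (R 4.3.3). The table lists 22068 genes, 3756 of them without a count. After filterByExpr 14599 remained, of which 10100 had a mean FPKM over 2 in 1 or more conditions. *Igf1*, *Adam12* and *Htra3* (4.66 in control, 1.74 with euthCRX, 1.13 with metaCRX) were kept through control alone. CPM and FPKM were computed from the counts, merged exon lengths and TMM-scaled library sizes, log2 CPM with a prior count of 2. The quasi-likelihood test was fitted to all 9 libraries, blocked by replicate number, since the study states that samples were prepared in pairs, with Benjamini-Hochberg adjustment over the 10100 genes and calls at an adjusted p under 0.05. The standard error was obtained as the absolute log2 fold change over the root of the F statistic. The fit was tested on simulated data.

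Members, gene lists, tests and alternatives were chosen with earlier results of these data known, and the 2 motifs TAAT and GGGCGG after values had been seen. All members are named. Of the other IGF genes and IGF binding protein domain genes, those called or at an unadjusted p under 0.05 in any comparison are named, except 1 that is not reported here, with *Igf2*, *Igf2r*, *Igfbp1*, *Insr* and *Irs2*, and for each member the 2 most correlated genes. Alternatives were no block, other scalings and filters, DESeq2 1.42.0, limma 3.58.1 voom, only the 6 libraries compared, and libraries left out. Each left-out fit recomputed the filter. Depth was 54145701 to 94699657 counts per library, and floors of 3 counts cover counting error only. Promoter sequences are from RefSeq.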

Additional observations from a re-analysis of the deposited data

How the results depend on the processing

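Of 569 values of members under 19 alternatives (18 for *Igf1* between the *CRX* genes), 471 kept their direction and side of the threshold, 59 kept their direction and newly passed it, and 39 changed sign, 3 of which also passed it (*Igfbp3* with metaCRX in limma voom and without the libraries numbered 3, *Igf1r* directly in limma voom). No call could be lost, as 0 members were called with all 9 libraries in edgeR. *Igf1* and *Igfbp2* kept their sign against control in all 19 alternatives, with *Igf1* between -2.01 and -1.54 for metaCRX and between -2.28 and -1.52 for euthCRX, and *Igfbp2* between -4.95 and -3.56 and between -2.69 and -1.32 (log2). The number of members called, 0 in each comparison, became 3 with metaCRX and 4 with euthCRX in DESeq2 on counts (9.94% and 3.30% of all genes). It became 1, 2 and 1 (metaCRX, euthCRX and the direct comparison) in DESeq2 on rounded FPKM (0.406%, 0.0990% and 0.0198% of all genes), 8, 6 and 8 in limma voom with quality weights (46.2%, 16.8% and 48.3%), and 7, 3 and 6 without the libraries numbered 3, where 22.2%, 2.94% and 22.5% of all genes tested were called. It became 1 with euthCRX without a filter (0.595% of all genes) and 2 with metaCRX in the fit of only the 6 libraries compared (3.97%). With 1 library left out it lay between 0 and 3 with metaCRX, 0 and 2 with euthCRX, and 0 and 2 directly. It was 3 without euthCRX replicate 3 (*Igfbp2*, *Igf1*, *Pappa*, with 8.83% of all genes called) and 3 without metaCRX replicate 3 (*Igfbp2*, *Igf1*, *Irs1*, with 4.92%), and the direct count of 2 (*Igfbp2*, *Igfbp4*, with 3.47%) came without euthCRX replicate 3. The euthCRX count of 2 (*Igfbp6*, *Igf1*, with 1.16%) came without metaCRX replicate 3, a library outside that comparison, which enters it through the spread, the block and the filter. The other IGF genes called, 0, 1 and 0 (0.0297%, 0.604% and 0% of all genes), became 7, 3 and 2 in DESeq2 on counts (9.94%, 3.30% and 3.14%). They became 23, 13 and 23 in limma voom (46.2%, 16.8% and 48.3%), and 15, 4 and 13 without the libraries numbered 3 (22.2%, 2.94% and 22.5%). The euthCRX count of 1 became 0 in DESeq2 on rounded FPKM (0.0990% of all genes) and with only the 6 libraries compared (0%), where the metaCRX count was 2 (3.97%). With 1 library left out these counts lay between 0 and 5, 0 and 1, and 0 and 3. The 5 and the 3 came without euthCRX replicate 3 (8.83% and 3.47% of all genes) and the 1 without metaCRX replicate 3 (1.16%). The causes of these shifts were not tested.

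Without the replicate block 0 members and 0 other IGF genes were called in any comparison, so that the euthCRX call of *Adam12* was lost, and members at an unadjusted p under 0.05 numbered 3, 4 and 1 in place of 5, 6 and 1 (metaCRX, euthCRX, and metaCRX against euthCRX), beside 13%, 6.09% and 6.4% of all genes in place of 19.5%, 8.56% and 11.5%. Across genes, the deviations of 2 libraries from their condition means had a correlation over 0.1 in 8 of 9 pairs with the same number, the lowest being 0.0034, and in 5 of 18 pairs with different numbers. The pairing by number is thus not established. Signs that turned without the block were those of *Igfbp3* with metaCRX against control (0.14) and, between the *CRX* genes, of *Igf1* (-0.035) and *Pappa* (-0.13).

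Other signs also turned. With metaCRX against control, *Igfbp3* was at 0.56 in limma voom, 0.0095 with only the 6 libraries compared and 0.60 without the libraries numbered 3, and *Igf1r* at 0.013 with filterByExpr alone and 0.021 without a filter. With euthCRX against control, *Igfbp4* was at -0.23 in limma voom and -0.35 without the libraries numbered 3, and *Igf1r* at 0.089 in limma voom. Between the *CRX* genes, *Igf1* was at -0.19 in DESeq2 on rounded FPKM and -0.27 without the libraries numbered 3, *Pappa* at -0.0051, -0.24 and -0.46 in DESeq2 on rounded FPKM, in limma voom and without the libraries numbered 3, and *Igf1r* at -0.013 with upper-quartile factors, -0.16 in limma voom and -0.050 without the libraries numbered 3. With 1 library left out, metaCRX against control ranged from -0.39 to 0.55 for *Igfbp3*, -0.076 to 0.075 for *Igf1r* and -0.63 to 0.015 for *Igfbp7*. For euthCRX the ranges were -0.14 to 0.054 for *Igf1r*, -0.90 to 0.037 for *Igfbp3* and -0.46 to 0.60 for *Igfbp4*, and directly -2.0e-05 to 0.67 for *Igfbp6*, -0.046 to 0.13 for *Igf1r*, -0.23 to 0.53 for *Igf1* and -0.39 to 0.43 for *Pappa*. Depth limits none of the members, the least counted of which had 333 counts in a library, so that the spread between libraries, not counting error, sets the precision.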
